A study of Solanum lycopersicum with 17 samples.

Results

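The genes listed on the tomato array as gad2, ADC, ARG2 and SPE4 are described here across parthenocarpic and seeded tomato fruit. They are 4 of the 803 genes that the array annotation names, and they were taken by symbol, with every probe set of that symbol: 1 each for gad2, ADC and SPE4, and 3 for ARG2, or 6 of 10101 probe sets. They were selected on measured values: their levels in these groups and the differences between them were known when they were chosen. All their values and differences are therefore a description without a test, and support nothing beyond themselves.

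Plants make putrescine, the first polyamine, from arginine through arginine decarboxylase or from ornithine through ornithine decarboxylase, and aminopropyl groups taken from S-adenosylmethionine extend it to spermidine and spermine. Arginase splits arginine to ornithine and urea, so it draws on the same amino acid as arginine decarboxylase. Gamma-aminobutyric acid (GABA), an abundant amino acid of green tomato fruit, is made from glutamate by glutamate decarboxylase and removed by GABA transaminases.

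The name gad2 did not hold up against the annotation. RefSeq (assembly SLM_r2.1, used here for names and gene order) gives this gene, number 544002, the synonyms 16DOX and GAME11, which are names of a dioxygenase in the synthesis of steroidal glycoalkaloids, the bitter defence compounds of green tomato. It lies on chromosome 7, with 1 annotated gene between it and GAME2 and 1 between it and GAME6, both named for glycoalkaloid metabolism. The 4 genes that RefSeq names as glutamate decarboxylases by symbol or synonym (GAD2, GAD3, LeGAD1 and SlGAD4) had no named probe set. Another gene, yfe37, also has the synonym GAD3 and 1 probe set, and is given under other observations. Glutamate decarboxylase was therefore not measured here under an unambiguous gene name. The symbol gad2 is kept below only as the array's name for this probe set. ADC (gene number 543960) is arginine decarboxylase and lies on chromosome 1. ARG2 (544271) is an arginase and lies next to the other arginase gene, ARG1, on chromosome 1. SPE4 (543797), on chromosome 8, carries the symbol of the spermine synthase of Saccharomyces cerevisiae, and its role in tomato is taken from that symbol alone.

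Fruit came from 4 transgenic lines and from wild type. INO-IaaM and DefH9-IaaM carried iaaM, a bacterial gene of auxin synthesis, and INO-RolB and DefH9-RolB carried rolB, an Agrobacterium gene that alters auxin responses. INO and DefH9 name the promoters, which are known from other species to be active in ovules. Control fruit without seeds were wild-type fruit whose seeds had been taken out by hand, and control fruit with seeds were intact wild-type fruit. Each group had 3 arrays except DefH9-RolB, which had 2, and each array held RNA of 8 pooled fruits and stood for 1 plant. Fruit stage, cultivar and the number of transformation events per line are not given in the labels used here.

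Values are log2 RMA values, so a difference of 1 is a doubling of signal. Array medians lay between 8.37 and 8.43, and arrays of a group correlated at 0.986 to 0.995. Of 63 probe sets for reporter genes, 61 read 2.45 to 5.49 on all arrays, and values in that range were not told apart from absence. At least 10 of 11 fruit marker genes were above it in every group. The seed markers available were 3 genes, and their mean did not mark seeds: it lay at 8.46 to 9.48 in the 4 lines, 9.59 to 9.91 in controls without seeds and 9.31 to 9.79 in controls with seeds. LEA14 and ER5 were above the silent range on every array, and MAN2 was above it on 2 arrays, both of INO-IaaM. The 5′ minus 3′ signal of actin and GAPDH, a measure of RNA integrity and labelling, averaged -0.46 ± 0.11 in the lines (SD, n = 11), -0.69 ± 0.19 in controls without seeds and -0.74 ± 0.15 in controls with seeds (SD, n = 3 each).

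**Figure D1:**
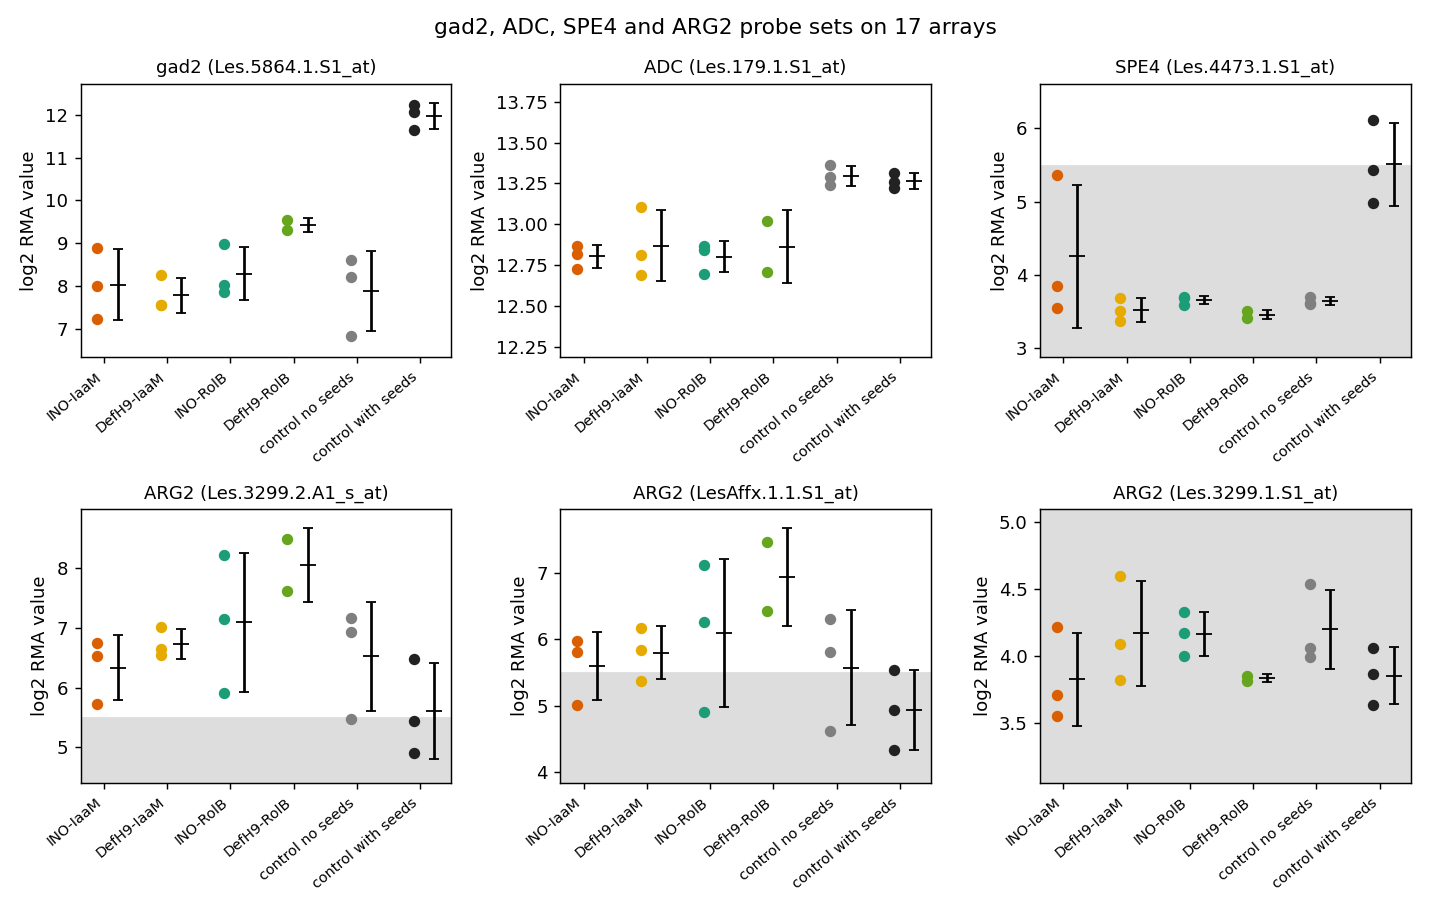
Log2 RMA value (vertical axis) of each member probe set on each array (coloured points) by group (horizontal axis), with the group mean and SD in black (n = 3, or 2 for DefH9-RolB); grey marks 2.45 to 5.49, where silent reporters read, and vertical scales differ. gad2 was highest in the 3 arrays of fruit with seeds, ADC was lower in all 11 line arrays than in the 6 control arrays, and SPE4 left the grey range on 1 array.

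Of the 4 genes, gad2 separated seeded fruit most widely. It read 7.99, 8.88 and 7.22 in INO-IaaM, 7.55, 8.25 and 7.55 in DefH9-IaaM, 8.02, 7.86 and 8.99 in INO-RolB, and 9.30 and 9.54 in DefH9-RolB. It read 8.21, 6.83 and 8.62 in controls without seeds, against 12.07, 11.64 and 12.23 in controls with seeds. Every array without seeds lay below every array with seeds, and no array of any group lay in the silent range. Taking seeds out by hand went with as low a gad2 signal as was read in the lines. The controls without seeds were not whole fruit, since a tissue had been taken out of them. In RNA of pooled fruits, fewer cells of a type and less RNA per cell cannot be told apart.

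The gad2 difference from controls with seeds was -3.95 in INO-IaaM, -4.20 in DefH9-IaaM and -3.69 in INO-RolB (SE 0.47 each), which is 0.0647, 0.0545 and 0.0774 times the seeded signal. In DefH9-RolB it was -2.56 (SE 0.52), or 0.169 times. In controls without seeds it was -4.10 (SE 0.47), or 0.0585 times. The mean of the 4 lines differed from controls without seeds by 0.50 (SE 0.38), close to its error. Non-overlap of this kind was common: 14.5% of all probe sets were lower without overlap in INO-IaaM, 14.6% in DefH9-IaaM, 16.9% in INO-RolB, 21.5% in DefH9-RolB and 10.7% in controls without seeds.

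Below seeded fruit, the order of gad2 means was DefH9-RolB (9.42 ± 0.17, SD, n = 2), INO-RolB (8.29 ± 0.61), INO-IaaM (8.03 ± 0.83), controls without seeds (7.88 ± 0.93) and DefH9-IaaM (7.78 ± 0.40, SD, n = 3 each). The 2 arrays of DefH9-RolB lay above all other arrays without seeds, whose highest was 8.99. The other neighbours in this order overlapped and differed by less than their spread. With the 5′ minus 3′ value added to the model, the differences from controls with seeds were -3.23 in INO-IaaM, -3.47 in DefH9-IaaM, -2.77 in INO-RolB and -1.46 in DefH9-RolB, and the lines exceeded controls without seeds by 1.22.

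SPE4 was also highest in seeded fruit, but at the bottom of the scale. It correlated with gad2 at 0.77 over the 17 arrays and at 0.13 over the 11 line arrays. It read 3.54, 5.37 and 3.85 in INO-IaaM, 3.69, 3.37 and 3.50 in DefH9-IaaM, 3.68, 3.59 and 3.70 in INO-RolB, and 3.41 and 3.50 in DefH9-RolB. It read 3.60, 3.70 and 3.61 in controls without seeds, against 4.98, 5.44 and 6.11 in controls with seeds. Only array 3 of seeded fruit read above the silent range, so SPE4 was not shown to be present on the other 16 arrays, and its differences are given as signal only. Relative to controls with seeds these were -1.26 in INO-IaaM, -1.99 in DefH9-IaaM, -1.85 in INO-RolB (SE 0.36 each), -2.06 in DefH9-RolB (SE 0.41) and -1.87 in controls without seeds (SE 0.36).

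One array set INO-IaaM apart for SPE4. Its second array, at 5.37, overlapped seeded fruit, and without it the difference was -1.82. The same array was also the highest line array for 64 of the 334 probe sets that were lower in controls without seeds, or 19.2%, against 7.47% of all probe sets. The arrays of DefH9-RolB followed, array 2 with 16.5% (8.54% of all probe sets) and array 1 with 15.9% (11.6%). The sugar genes AGAL and GolS-1 were high in seeded fruit, were picked after their values were seen, and read high there too: AGAL, an alpha-galactosidase, read 8.35 against 3.65 and 3.96 on the group's other arrays, and GolS-1, a galactinol synthase, read 7.99 against 3.70 and 4.32. These genes were also high on array 2 of DefH9-RolB (AGAL 7.47, GolS-1 7.11) and on array 3 of the controls without seeds (AGAL 7.96, GolS-1 7.95), where SPE4 read 3.50 and 3.61. Whether seed tissue was present in these pools was not tested.

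ADC differed in outline from both: its 2 controls read alike within their spread, and it was lower in the lines. It read 12.82, 12.87 and 12.73 in INO-IaaM, 12.81, 13.11 and 12.69 in DefH9-IaaM, 12.84, 12.70 and 12.87 in INO-RolB, and 13.02 and 12.71 in DefH9-RolB. It read 13.24, 13.29 and 13.36 in controls without seeds and 13.26, 13.32 and 13.22 in controls with seeds. All 11 line arrays (12.69 to 13.11) lay below all 6 control arrays (13.22 to 13.36), which 2.43% of probe sets did. The 4 lines overlapped one another, and so did the 2 controls.

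The ADC differences were small. Relative to controls with seeds they were -0.46 in INO-IaaM, -0.40 in DefH9-IaaM, -0.46 in INO-RolB (SE 0.11 each) and -0.40 in DefH9-RolB (SE 0.12), or 0.726 to 0.760 times the seeded signal. Controls without seeds differed from controls with seeds by 0.03 (SE 0.11), and the mean of the lines differed from controls without seeds by -0.46 (SE 0.09). The 5′ minus 3′ signal was also higher on average in the lines than in the controls, with overlapping arrays. With it in the model the 4 line differences were -0.35, -0.29, -0.33 and -0.24 in the same order, and its part in the result was not otherwise tested. Without its second array, DefH9-RolB differed by -0.24, and without its first by -0.56.

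ARG2 was the only one of the 4 whose mean was higher in the lines than in controls with seeds. Its probe set of highest mean (the set ending in A1_s_at) read 6.54, 6.74 and 5.72 in INO-IaaM, 6.64, 7.01 and 6.55 in DefH9-IaaM, 7.15, 5.90 and 8.23 in INO-RolB, and 7.61 and 8.49 in DefH9-RolB. It read 6.94, 5.48 and 7.16 in controls without seeds and 6.48, 5.44 and 4.90 in controls with seeds. DefH9-RolB and DefH9-IaaM lay above every seeded array, as did 27.3% and 20.4% of all probe sets in these lines, while INO-IaaM, INO-RolB and controls without seeds overlapped seeded fruit. Arrays of INO-RolB spanned 5.90 to 8.23, wider than the gap between most group means.

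The ARG2 difference from controls with seeds was 0.72 in INO-IaaM, 1.12 in DefH9-IaaM and 1.49 in INO-RolB (SE 0.58 each), 2.44 in DefH9-RolB (SE 0.65) and 0.92 in controls without seeds (SE 0.58). Of the seeded arrays, 5.44 and 4.90 lay in the silent range, so ARG2 was shown above it on 1 seeded array only, and the differences are given as signal with no fold. The group means ran from DefH9-RolB (8.05 ± 0.62, SD, n = 2) through INO-RolB (7.09 ± 1.17), DefH9-IaaM (6.73 ± 0.24), controls without seeds (6.53 ± 0.91) and INO-IaaM (6.33 ± 0.54) to controls with seeds (5.61 ± 0.80, SD, n = 3 each), and neighbours differed by less than their spread.

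The 3 ARG2 probe sets did not all report the same thing. LesAffx.1.1.S1_at followed the first (r = 0.98 over 17 arrays), with 6.43 and 7.46 in DefH9-RolB against 5.54, 4.93 and 4.33 in controls with seeds, a difference of 2.01 (SE 0.62). There too, 2 of the 3 seeded arrays lay in the silent range. The remaining set stayed between 3.55 and 4.59, inside the silent range on all 17 arrays, and did not follow it (r = -0.09). By Affymetrix naming a set ending in _s_at can match more than 1 transcript, so a share of ARG1 signal in it cannot be told apart. ARG1 read 10.07 and 10.34 in DefH9-RolB and 10.22, 10.07 and 9.88 in controls with seeds, a difference of 0.14 (SE 0.16) that did not pass the test.

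**Figure D2:**
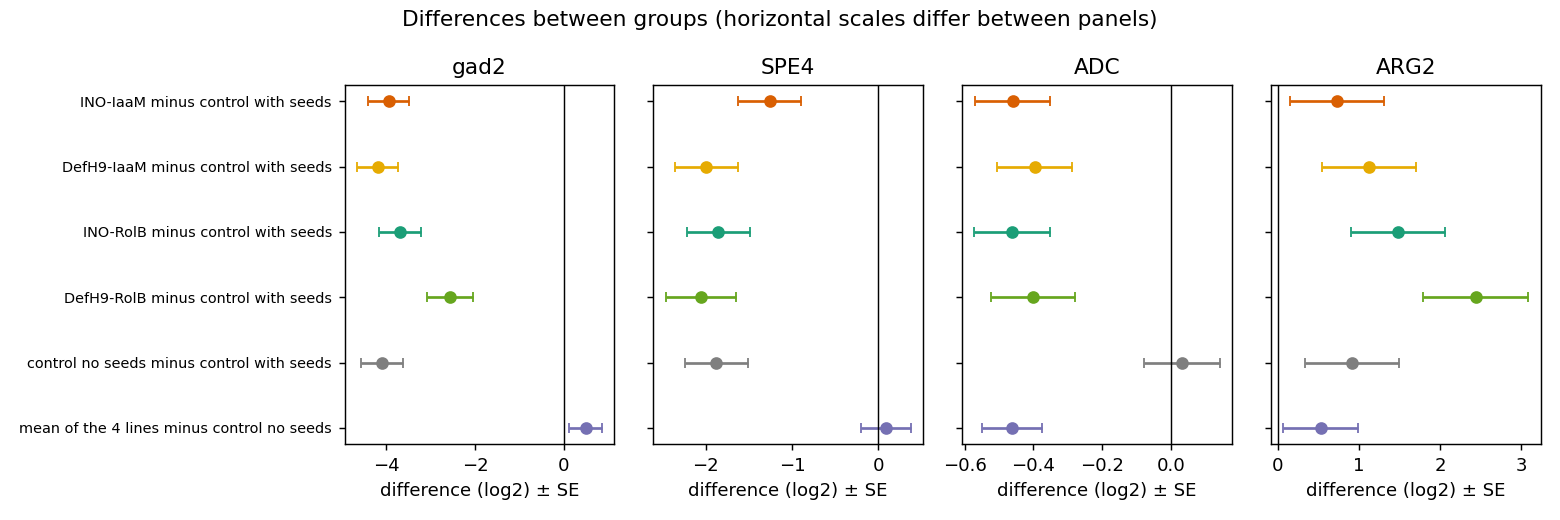
Difference in log2 RMA value ± SE (horizontal axis, scales differ) of gad2, SPE4, ADC and ARG2 (highest-mean probe set) in the 5 groups against controls with seeds and in the mean of the 4 lines against controls without seeds. For gad2 and SPE4 the controls without seeds lie among the lines, while for ADC they lie near 0.

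The fit over all probe sets (limma, adjusted p under 0.05) called 3 of the 4 genes lower in each line: gad2, ADC and SPE4. Of all probe sets, 7.83% were called lower in INO-IaaM, 8.14% in DefH9-IaaM, 9.68% in INO-RolB and 7.27% in DefH9-RolB. It called 1 gene higher, ARG2 in DefH9-RolB, where 8.89% of probe sets were called higher. In INO-IaaM, DefH9-IaaM and INO-RolB, where no member was called higher, 8.24%, 9.5% and 11.9% of probe sets were. In controls without seeds it called 2 lower, gad2 and SPE4 (3.31% of probe sets lower, 1.02% higher), and for the lines against controls without seeds 1, ADC (8.43% lower, 8.71% higher). No gene was called between IaaM and RolB lines, where 1.93% of probe sets were lower and 0.99% higher. Because these contrasts were known when the genes were chosen, nothing is read from the counts. Several calls also hung on single arrays. ADC was not called in DefH9-IaaM without any 1 of the seeded arrays or without its own array 1 or 3, nor in DefH9-RolB without any 1 of the seeded arrays, its own array 2, array 2 of INO-IaaM or array 1 of INO-RolB. ARG2 was not called in DefH9-RolB without either of its own arrays or seeded array 3. SPE4 was not called in INO-IaaM without its own array 1 or 3 or seeded array 2 or 3, nor in controls without seeds without seeded array 3. gad2 was not called in DefH9-RolB without array 1. With the 5′ minus 3′ value in the model, ADC was called in no comparison, ARG2 was not called, SPE4 was called in DefH9-IaaM and controls without seeds only, and gad2 was not called in DefH9-RolB but was called lower in IaaM than in RolB lines (-1.24).

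The other genes of these pathways were 13 genes with 17 probe sets. Compared with controls with seeds, 3 fell and 0 rose in INO-IaaM, 2 fell and 1 rose in DefH9-IaaM, and 1 fell and 1 rose in INO-RolB. In DefH9-RolB 0 fell and 1 rose, and in controls without seeds 1 fell and 0 rose. Of all probe sets, 7.83% were called lower and 8.24% higher in INO-IaaM, and 8.14% and 9.5% in DefH9-IaaM. The shares were 9.68% and 11.9% in INO-RolB, 7.27% and 8.89% in DefH9-RolB, and 3.31% and 1.02% in controls without seeds. The median difference of the 13 genes was -0.25, -0.15, -0.12, -0.13 and 0.14 in the same order, against 0.06, 0.05, 0.05, 0.03 and 0.03 over all probe sets. With the 5′ minus 3′ value in the model the count was 0 in INO-IaaM, INO-RolB and DefH9-RolB.

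Among GABA transaminases, GABA-TP2 fell by 1.07 in INO-IaaM (SE 0.28, limma adjusted p = 0.0227), by 1.47 in DefH9-IaaM (adjusted p = 0.00392), by 1.11 in INO-RolB (adjusted p = 0.0148) and by 1.41 in controls without seeds (adjusted p = 0.0107). It read 4.78 to 6.33 on the arrays without seeds, against 7.05, 6.42 and 6.80 in controls with seeds. All 3 arrays of DefH9-IaaM (5.43, 5.13 and 5.29) lay in the silent range, as did 1 array each of INO-RolB and of the controls without seeds, so the differences of these groups are lower limits in size. In DefH9-RolB its difference was -0.80 (adjusted p = 0.103). These calls were lost in INO-IaaM without array 2 or 3 or seeded array 1 or 3, in INO-RolB without array 2 or seeded array 1, and in controls without seeds without array 2. RefSeq also gives it the synonym GAME12 and places it directly beside GAME4 on chromosome 12. Unlike gad2, it keeps its enzyme name there, with synonyms such as SlGABA-T2. GABA-TP1 and GABA-TP3 did not pass in any group, with differences of -0.09 to 0.09 for GABA-TP1 and -0.39 to 0.14 for GABA-TP3.

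Both genes with GAME synonyms were highest in seeded fruit. Across the 17 arrays gad2 and GABA-TP2 correlated at r = 0.90, at 0.64 after group means were taken out and at 0.63 over the 11 line arrays. Ordered by correlation with gad2, GABA-TP2 stood at place 64 among all other probe sets. The arrays share groups and normalization, so these values are a description of these arrays.

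**Figure D3:**
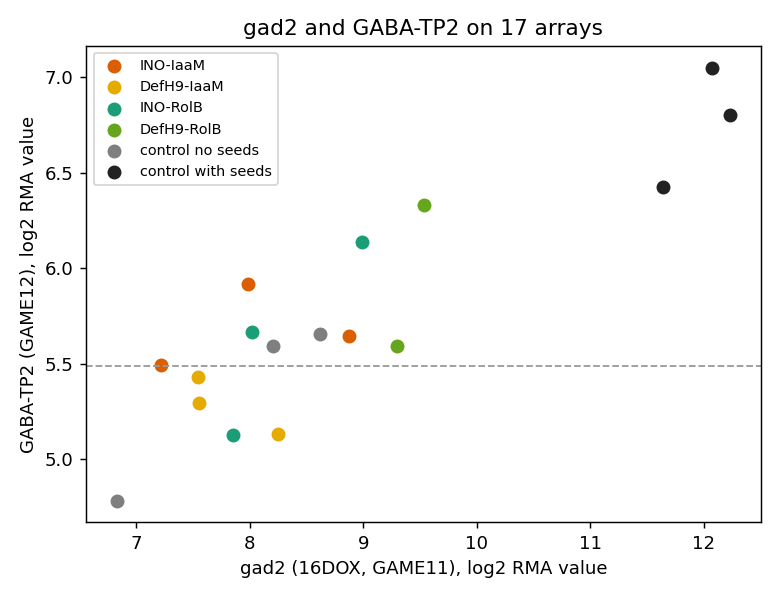
Log2 RMA value of GABA-TP2 (vertical axis) against gad2 (horizontal axis) on 17 arrays, coloured by group; the dashed line is the top of the silent range, 5.49. The 3 arrays of fruit with seeds stand at the upper right, at 11.64 to 12.23 for gad2 and 6.42 to 7.05 for GABA-TP2.

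In the polyamine branch, SAM1 and SAM3 encode S-adenosylmethionine synthetases. SAM1 fell by 0.39 in INO-IaaM (adjusted p = 0.0144) and by 0.40 in DefH9-IaaM (adjusted p = 0.0116), and SAM3 fell by 0.25 in INO-IaaM (adjusted p = 0.0479), a call lost in 18 of the other settings tried. The SAM1 call in INO-IaaM was lost without array 2 or seeded array 1, and that in DefH9-IaaM without array 3. ODC, ornithine decarboxylase, did not pass in any group, with differences of -0.43 to 0.29.

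The second arginine decarboxylase gene, adc1 on chromosome 10, did not pass against controls with seeds, but the mean of the 4 lines was lower than controls without seeds by 1.33 (SE 0.36, adjusted p = 0.0249) at the highest-mean set of its 4 probe sets. That call was lost when any 1 of the 3 controls without seeds was left out. In that comparison 4 of the 13 genes fell and 0 rose: adc1, SAM1 (-0.31, adjusted p = 0.0139), SAM3 (-0.40, adjusted p = 0.00216) and gdh1, a glutamate dehydrogenase (-0.49, adjusted p = 0.0238). Of all probe sets, 8.43% were called lower there and 8.71% higher. The calls of SAM1 and gdh1 were lost without array 1 or array 3 of the controls without seeds. With the 5′ minus 3′ value in the model, 1 of the 4 was called, SAM3. ADC and adc1 varied together over the 17 arrays (r = 0.89), also after group means were taken out (r = 0.83). Ordered by correlation with ADC, adc1 stood only at place 134 among all other probe sets. ADC and adc1 had r = 0.85 over the 11 line arrays. For ARG2 and ARG1, r was 0.34 over the 17 arrays, 0.57 after group means were taken out and 0.83 over the 11 line arrays.

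In nitrogen recycling, UREF, a urease accessory protein, rose by 1.28 in DefH9-IaaM (adjusted p = 0.0265) and by 1.19 in INO-RolB (adjusted p = 0.0311). Both calls were lost without seeded array 1 or 3, that of DefH9-IaaM also without its array 1 or 3, and that of INO-RolB also without its array 1 or 2. gts1, a glutamine synthetase, rose by 1.65 in DefH9-RolB (adjusted p = 0.0486), a call lost in 18 of the other settings. URED, PRO2 (pyrroline-5-carboxylate synthetase) and ARG1 passed in no comparison.

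**Figure D4:**
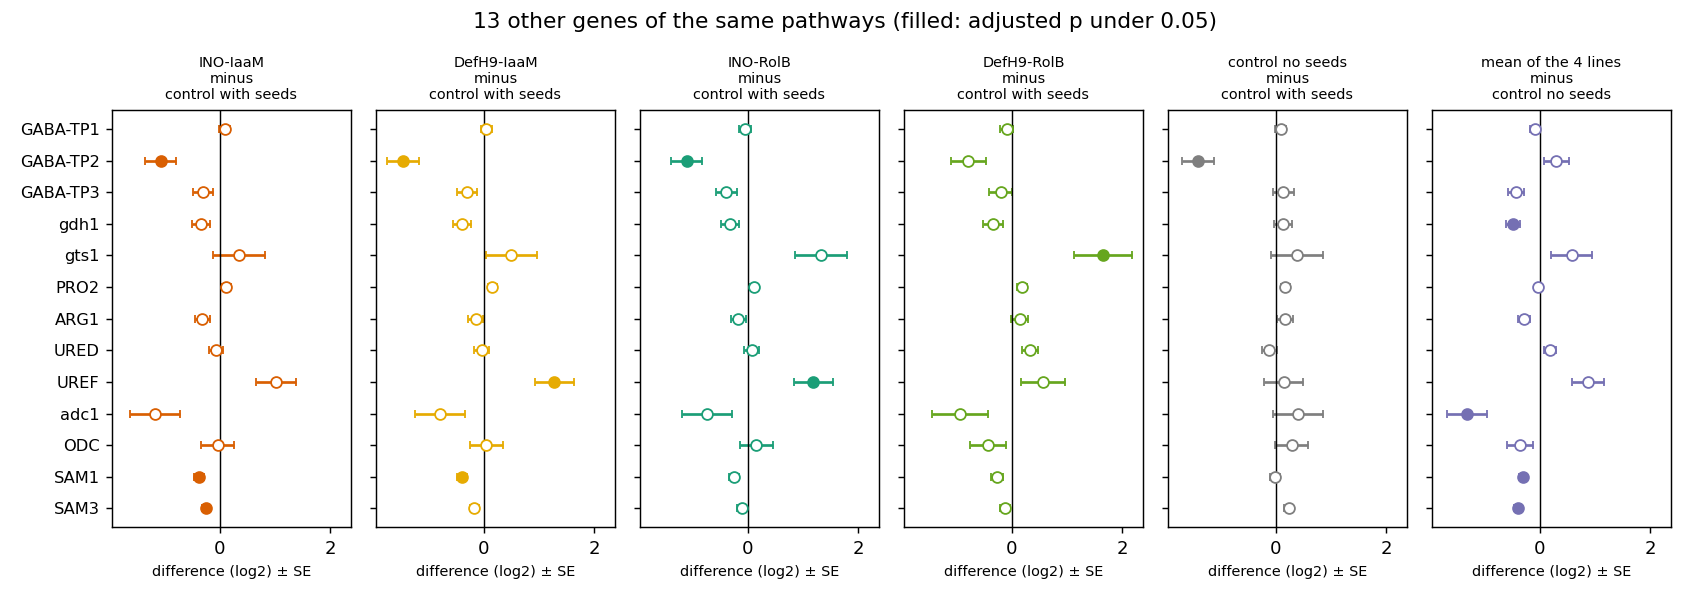
Difference in log2 RMA value ± SE (horizontal axis) of 13 other genes (rows) in 6 comparisons (panels), filled where the adjusted p was under 0.05. GABA-TP2 is filled in 4 panels, and adc1, gdh1, SAM1 and SAM3 are filled for the mean of the lines against controls without seeds.

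By pattern over the 17 arrays, the named genes most like gad2 were GLB2 (r = 0.94), THT1-3 (0.93) and AGAL (0.92), with 59 probe sets above 0.9. ADC was most like DEM2 (0.95), yfe37 (0.93) and GRAS6 (0.93), with 113 above 0.9. SPE4 was most like FLACCA (0.86), EXPA10 (0.85) and SNF4 (0.85), with 5 above 0.9. Most SPE4 values lay in the silent range, and its list did not hold under other measures. By Spearman the SPE4 list was eIF-5A1, GolS-1 and loxC, and over group means TH1, IAA2 and THM16. Over group means the gad2 list also changed wholly, to CHS1, MYB and TPI. ARG2 was most like cMDH (0.83), GLX1 (0.81) and CELLULASE (0.79), and its only probe set above 0.9 was its own second one. The arrays share groups and scaling, and these likenesses carry no test.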

How the data were processed

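The deposited log2 values were made by the authors with RMA, per the submitters' processing notes (version not stated). The log2 scale was read from the values. No genome build is named, so no coordinates are given, and no sequences were available to print. Of 10209 probe sets, 108 AFFX controls were set aside. The array annotation names 909 of the remaining 10101, of which 885 matched RefSeq by gene number.

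One mean per group was fitted over all 17 arrays with limma 3.58.1 (R 4.3.3; lmFit, eBayes, 11 residual degrees of freedom), with Benjamini-Hochberg adjustment over 10101 probe sets and a threshold of 0.05. The script was tested on simulated data. The number of arrays limits the precision.

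The members and lists were chosen with earlier results of these data known. The annotation has no descriptions, so the pathway list was resolved by symbol after values had been seen; PRO1, yfe37, GS2, PDH and LOC543937 were left out as ambiguous. A gene is given by its probe set of highest mean. Named genes are the members, list genes called in at least 1 comparison with seeded controls (and, beyond that rule, adc1, gdh1 and list genes without a call), and the 3 named genes most like each member. Reporters under 6 on all arrays counted as silent, a limit set after seeing them. Among groups with 3 same-numbered pairs, all correlations of deviations were above 0.1 only between the 2 controls (0.164 to 0.478). INO-IaaM and DefH9-RolB, with 2 pairs, had 0.334 and 0.441. The labels give the numbers no shared origin.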

Additional observations from a re-analysis of the deposited data

Results flagged for a closer look

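SAM1 and SAM3 differed directly between lines and controls without seeds, by limma over all probe sets. This test was chosen after an untested screen had been looked at. SAM1 was lower by 0.37 in INO-IaaM (a difference of -0.37, adjusted p = 0.0365) and by 0.38 in DefH9-IaaM (-0.38, adjusted p = 0.0365). It was not called in INO-RolB (-0.24, adjusted p = 0.112) or DefH9-RolB (-0.26, adjusted p = 0.140). For the mean of the lines, SAM1 was not called with the 5′ minus 3′ value in the model. SAM3 differed by -0.48 in INO-IaaM (adjusted p = 0.00565), -0.40 in DefH9-IaaM (adjusted p = 0.0163), -0.35 in INO-RolB (adjusted p = 0.0201) and -0.36 in DefH9-RolB (adjusted p = 0.0275).

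Outside the main measurement, 2 reporter probe sets were high in the lines. RPTR-Les-A00196-1_s_at had a median of 10.34 over the line arrays, with 10 of 11 above the controls (3.83 to 4.36). RPTR-Les-U57609-2_s_at had a median of 9.74, with 11 of 11 above the controls (3.75 to 4.09).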

How the results depend on the processing

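No member difference from seeded controls that was called changed sign under any alternative. Counts of probe sets called moved most. With array weights they were 2692 in INO-IaaM, 2980 in DefH9-IaaM, 3320 in INO-RolB, 679 in controls without seeds and 494 for IaaM minus RolB lines. With the 5′ minus 3′ covariate they were 639 in INO-IaaM, 881 in DefH9-IaaM, 707 in INO-RolB and 359 in DefH9-RolB, and 396 for the lines against controls without seeds. With only the groups compared they were 711 in DefH9-IaaM, 808 in DefH9-RolB, 239 in controls without seeds and 116 for IaaM minus RolB, and without the lowest 30 percent of probe sets 244 in controls without seeds. The main counts were 1623, 1782, 2178 and 1632 for the lines in that order, 437 for controls without seeds, 1732 for the lines against them and 295 for IaaM minus RolB. With the covariate gad2 differed by -3.23, -3.47, -2.77 and -1.46 in the lines and by 1.22 from controls without seeds, and ADC by -0.33 in INO-RolB and -0.24 in DefH9-RolB.

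Pathway genes called were 5, 4 and 2 in INO-IaaM, INO-RolB and DefH9-RolB and 2 in controls without seeds with array weights. With only the groups compared they were 1, 1, 1 and 0 in the lines and 0 in controls without seeds. With the covariate they were 0 in INO-IaaM, INO-RolB and DefH9-RolB and 1 for the lines against controls without seeds. Without low probe sets they were 1 in INO-RolB and 0 in controls without seeds. In DefH9-RolB they were 0 after quantile normalization again, median centring or the replicate block. Probe sets alike to a member above 0.9 were 54, 0 and 1 by Spearman for ADC, SPE4 and gad2, and 540, 336, 241 and 281 over group means for ADC, ARG2, SPE4 and gad2.

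Leaving out 1 array gave 839 to 1852 calls in INO-IaaM, 999 to 2123 in DefH9-IaaM, 1188 to 2409 in INO-RolB, 660 to 1859 in DefH9-RolB, 224 to 463 in controls without seeds, 743 to 2134 for the lines against them, 79 to 332 for IaaM minus RolB and 0 to 2 for DefH9 minus INO, whose main count was 0 (378 at an unadjusted p under 0.05). Pathway counts ran 0 to 4, 1 to 5, 0 to 3 and 0 to 1 in the lines, 0 to 1 in controls without seeds and 1 to 6 against them. ADC in DefH9-RolB ran -0.56 to -0.24, and SPE4 in INO-IaaM -1.82 to -0.90. Where 1 array was left in DefH9-RolB, it was assumed to vary like the other groups. The causes were not tested.

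With the replicate number as a block, which the labels do not tie to a shared origin, 1427, 1644, 2029 and 1371 probe sets were called in the lines, and the calls of ADC in DefH9-RolB (-0.42), SAM3 in INO-IaaM and gts1 in DefH9-RolB were lost.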

Other observations

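Other genes around these pathways were picked after their values were seen. Among them, DHS, a deoxyhypusine synthase, and the translation factors eIF-5A1, eIF-5A2, eIF-5A3 and eIF-5A4 were called in no comparison. yfe37, which RefSeq also calls GAD3 under another gene number than the glutamate decarboxylase GAD3, was lower in the lines: by limma it differed from controls with seeds by -1.89 in INO-IaaM (adjusted p = 0.00816), -1.87 in DefH9-IaaM (adjusted p = 0.0079), -1.75 in INO-RolB (adjusted p = 0.0096) and -1.35 in DefH9-RolB (adjusted p = 0.0598), and by 0.58 in controls without seeds (adjusted p = 0.555). The mean of the lines differed from controls without seeds by -2.30 (adjusted p = 0.00107). All 3 arrays of INO-IaaM (5.34, 5.44 and 5.16), 2 of DefH9-IaaM (4.98 and 4.87) and 1 of INO-RolB (4.82) lay in the silent range, so the differences of these lines, and of the mean of the lines, are lower limits in size.

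The proline transporters ProT1 and ProT2 were lower in the lines than in controls without seeds, by a difference of -0.64 (adjusted p = 0.00345) and -1.06 (adjusted p = 0.00986). Against controls with seeds no line was called, with differences of -0.22 to 0.06 for ProT1 and -0.40 to -0.10 for ProT2. ProT1 was also 0.58 higher in controls without seeds than in controls with seeds (adjusted p = 0.0336). ProT3 was not called, at -0.34 (adjusted p = 0.252).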
